A study of Ovis aries with 2 samples.

Results

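Voltage-gated calcium and sodium channels are the proteins through which hormone-producing cells of the pituitary fire action potentials and admit calcium, and calcium entry drives the release of stored hormone. A calcium channel is built around a pore-forming alpha1 subunit (CACNA1 genes), a cytoplasmic beta subunit (CACNB) and an alpha2delta subunit outside the membrane (CACNA2D), while CACNG genes encode gamma subunits or relatives that escort glutamate receptors. A sodium channel has a pore-forming alpha subunit (SCN genes ending in A) with beta subunits beside it (SCN genes ending in B). Somatotrophs and lactotrophs are known for calcium-carrying spontaneous activity, whereas gonadotrophs secrete in response to GnRH, which also releases calcium from internal stores.

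The genes were taken by symbol, as every entry of the feature table that begins with CACNA, CACNB or CACNG, or that reads SCN, a number and A or B. This gave 39 of 23141 genes, of which 25 were calcium channel and 14 sodium channel genes. No measured value entered the choice. A total of 38 had at least 1 UMI (a count of 1 captured RNA molecule) in the analysed cells, and CACNG8 had none. In the hormone-producing classes 20 members reached 100 UMIs over both libraries, 13 for calcium and 7 for sodium channels, and those named below are described one by one.

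The study profiled dissociated anterior pituitary of Hu sheep by droplet single-cell sequencing, with 1 library at 3 months and 1 at 6 months, in work on puberty. The labels name no treatment or genotype, and neither the sex of the sheep nor how many went into a library is stated. With 1 library per age, age and library cannot be told apart and no test was possible. All intervals are 95% intervals of counting error only, and they treat the UMIs of a class as independent.

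The libraries held 142479651 and 175239612 UMIs in 18961 and 15031 barcodes, and 15446 and 12683 cells were analysed after filtering and removal of doublets. The libraries shared 81 barcode sequences, of which 56 were kept in both. Clusters were formed without the channel and hormone genes and called lactotroph-like, somatotroph-like or gonadotroph-like from other markers together with the hormones, and the plain names below stand for those calls. There were 2135 and 4365 lactotrophs, 1295 and 513 somatotrophs, and 1168 and 259 gonadotrophs at 3 and 6 months. PRL made up 56.7% and 53.5% of lactotroph UMIs, GH 33.4% and 27% of somatotroph UMIs, and CGA 17.3% and 19.6% of gonadotroph UMIs. No cluster was named thyrotroph, and a corticotroph cluster held 218 cells at 3 months and 7 at 6 months. Both classes were therefore gated on POMC and TSHB, so each is a range of a score, although 122 of the 133 corticotrophs gated at 3 months lay in that cluster. They came to 133 corticotrophs at 3 months, 11 at 6 months (too few to describe), and 66 and 71 thyrotrophs. A further 78 cells at 3 months and 27 at 6 months passed the TSHB gate together with another hormone gate. Those cells were left out, so the gated thyrotrophs are only a part of the cells past the TSHB gate. Of the gated thyrotrophs 28 and 44 lay in cluster 5, an unnamed cluster nearest to lactotrophs, and 10 and 5 in somatotroph clusters. Within 2-fold of the TSHB threshold lay 25 and 18 gated cells and 95 and 74 cells below it, and at the POMC threshold 33 and 49 at 3 months. The thyrotrophs also held PRL at 2.45% and 15.2% of UMIs, against 1.9% and 4.79% in endothelial and immune cells. Endothelial markers summed to 497 and 91.7 CPM of non-hormone UMIs in thyrotrophs and to 266 in corticotrophs, where macrophage markers summed to 512, and their part in the levels of these gated classes was not tested.

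The clusters behind a class differed between the libraries. At 3 months 77.1% of lactotrophs were in cluster 7, and at 6 months 52.3% were in cluster 2 and 41.4% in cluster 4. Of the gonadotrophs, 74.2% were in cluster 13 at 3 months, while 56% at 6 months were in cluster 27, which held 2 cells at 3 months. Somatotrophs shared cluster 6, with 93.9% and 99.4% of the class. Levels are CPM, a gene's share of a class's summed UMIs in parts per 1e6, on TMM effective library sizes, and they compare a gene between classes, not different genes with each other. Endothelial and immune cells, 3273 at 3 months and 2888 at 6 months, served as the background, a measure of free RNA. Free RNA made an estimated 8.68% and 13.9% of their UMIs. Not every member was absent from them. With each cell thinned to 2000 UMIs, CACNA1A had a UMI in 1.38% and 1.96% of endothelial cells. That compares with 0.239% and 0.302% of lactotrophs and 1.79% and 0.403% of gonadotrophs. A member that is not above background is therefore not shown to be absent from a class.

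A member was counted as above background where it had at least 10 UMIs in the class and at least 2-fold the background CPM, with the lower bound of the ratio above 1. In lactotrophs 17 of the 21 members with 10 UMIs met this at 3 months, against 27.1% of all genes with 10 UMIs, and 15 of 24 at 6 months, against 26.5%. In somatotrophs the counts were 20 of 22 (26.5% of all genes) and 17 of 17 (27%). In gonadotrophs they were 19 of 23 (26.5%) and 14 of 18 (26.9%). Gated corticotrophs at 3 months had 11 of 12 members above background, against 23.1% of all genes, and gated thyrotrophs had 9 of 9 against 22.5% and 11 of 11 against 24.3%. In every described class the share of members above background was more than 2-fold that of all genes. The counts depend on depth, since members under 10 UMIs could not enter.

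**Figure D1:**
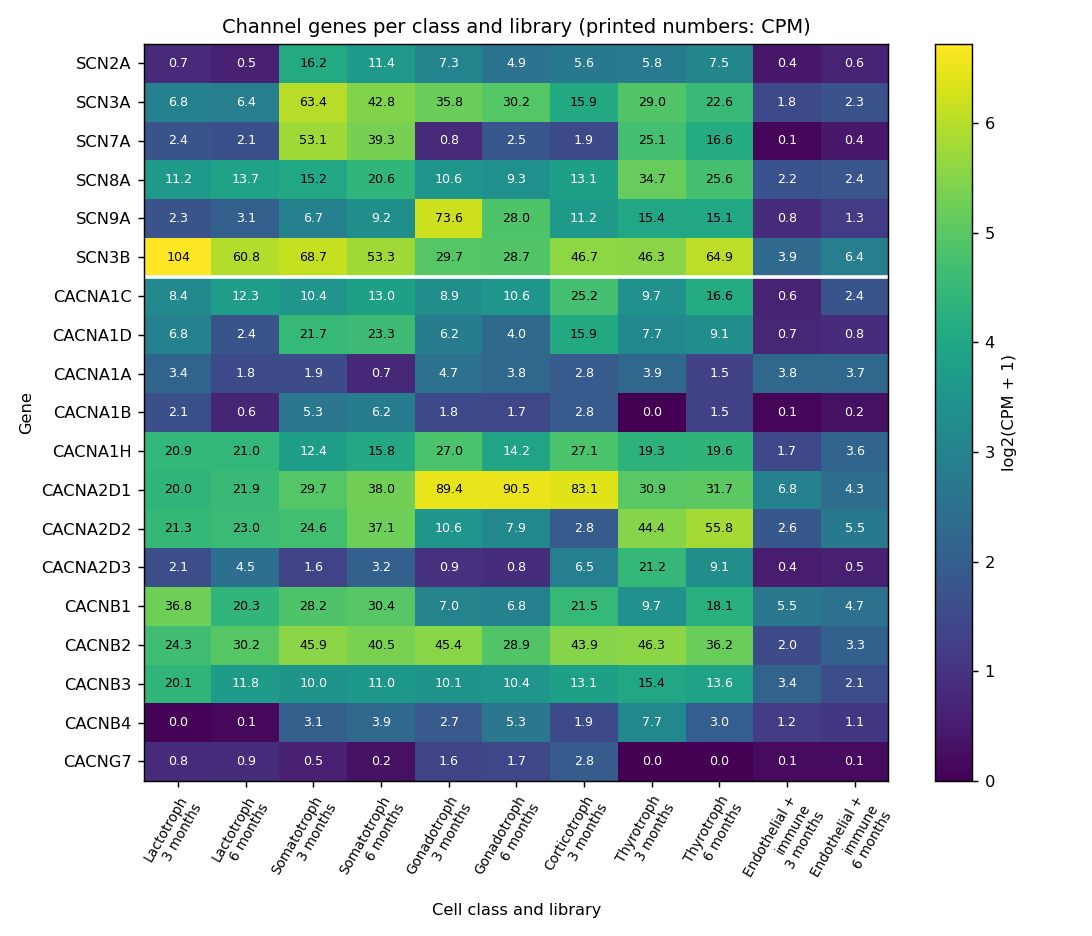
Level of 19 channel genes with at least 100 UMIs (rows, sodium channel genes above the white line) in each class and library (columns), with the CPM printed in each field and colour on a log2(CPM + 1) scale. SCN7A is brightest in somatotrophs (53.1 and 39.3 CPM), SCN9A in gonadotrophs at 3 months (73.6 CPM), and SCN3B in lactotrophs at 3 months (104.5 CPM).

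Among the sodium channel pores, SCN7A marked somatotrophs and SCN9A marked gonadotrophs. SCN3A and SCN2A were higher in somatotrophs and gonadotrophs than in lactotrophs, and SCN8A was found in every class. SCN7A encodes Nax, an unusual family member known as a sensor of extracellular sodium. Its level was 53.1 CPM (interval 48.6 to 58.0) in somatotrophs at 3 months and 39.3 (33.7 to 45.7) at 6 months. Lactotrophs had 2.35 and 2.12 CPM, gonadotrophs 0.790 and 2.55 CPM, and the background 0.0723 and 0.370 CPM. The somatotroph level was 22.6-fold the next of the 3 large classes at 3 months and 15.4-fold at 6 months, far beyond the counting intervals. Although SCN7A had been kept out of the clustering, it stood among the 10 leading genes of cluster 6. Gated thyrotrophs came second, with 25.1 CPM (13.4 to 42.9) and 16.6 CPM (8.28 to 29.7), from 13 and 11 UMIs. Without the cells that lay in named lactotroph, somatotroph and gonadotroph clusters, SCN7A stood at 32.9 and 37.6 CPM of non-hormone UMIs in the remaining 45 and 57 thyrotrophs, beside 44.9 and 29.7 for all of them. In somatotrophs of cluster 29, which also carried TSHB, it was 16.8 CPM of non-hormone UMIs at 3 months, against 72.6 in cluster 6.

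SCN9A, which encodes a channel best known from pain-sensing neurons and present in many neuroendocrine cells, was highest in gonadotrophs, at 73.6 CPM (69.1 to 78.2) at 3 months and 28.0 CPM (23.5 to 33.2) at 6 months. Somatotrophs had 6.73 and 9.15 CPM, and lactotrophs 2.31 and 3.13 CPM. At 3 months the gonadotroph level exceeded that of every other class beyond counting error, and at 6 months its interval against gated thyrotrophs (15.1 CPM) included equality. Cluster 15 was unnamed but nearest to gonadotrophs, with CGA, FOXL2 and GATA2 as supporting markers and SCGN and NEUROD1 among its leading genes. It held SCN9A at 97.5 and 54.7 CPM of non-hormone UMIs, a level near that of gonadotroph cluster 13 (103 and 76.8).

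SCN3A, an alpha subunit prominent in the developing brain and in endocrine cells, was highest in somatotrophs, with 63.4 and 42.8 CPM. Gonadotrophs had 35.8 and 30.2 CPM, and lactotrophs 6.78 and 6.37 CPM. Thus the order somatotroph, gonadotroph, lactotroph was the same in both libraries, with neighbours apart beyond counting error. SCN2A, a brain channel, followed the same order at lower levels, with 16.2 and 11.4 CPM in somatotrophs and 7.26 and 4.88 CPM in gonadotrophs. Its lactotroph levels, 0.730 and 0.521 CPM, were not above background by the rule (0.361 and 0.592 CPM). Gated thyrotrophs had 29.0 and 22.6 CPM of SCN3A, and 5.79 and 7.54 CPM of SCN2A from 3 and 5 UMIs. For both genes they were not apart from gonadotrophs in either library. SCN8A, another brain channel, ranged from 10.6 to 15.2 CPM over the 3 large classes at 3 months and from 9.34 to 20.6 CPM at 6 months. Its highest values, 34.7 and 25.6 CPM, were in gated thyrotrophs, and at 6 months these were not apart from somatotrophs.

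The remaining alpha subunits were scarce. SCN10A, known from sensory neurons, had 5 UMIs in all, and all 5 were in gonadotrophs at 6 months. Those 5 UMIs were in cluster 27, where cluster 13 of the same library had 0 in 80 cells. SCN1A had 14 UMIs in lactotrophs and 5 in somatotrophs at 6 months, and SCN4A and SCN11A had at most 4 in any class. In the ARS-UI_Ramb_v3.0 gene table SCN7A and SCN9A are direct neighbours, as are SCN2A and SCN3A. SCN7A and SCN9A thus lie side by side and were highest in different classes, whereas the adjacent SCN2A and SCN3A had the same order of classes.

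**Figure D2:**
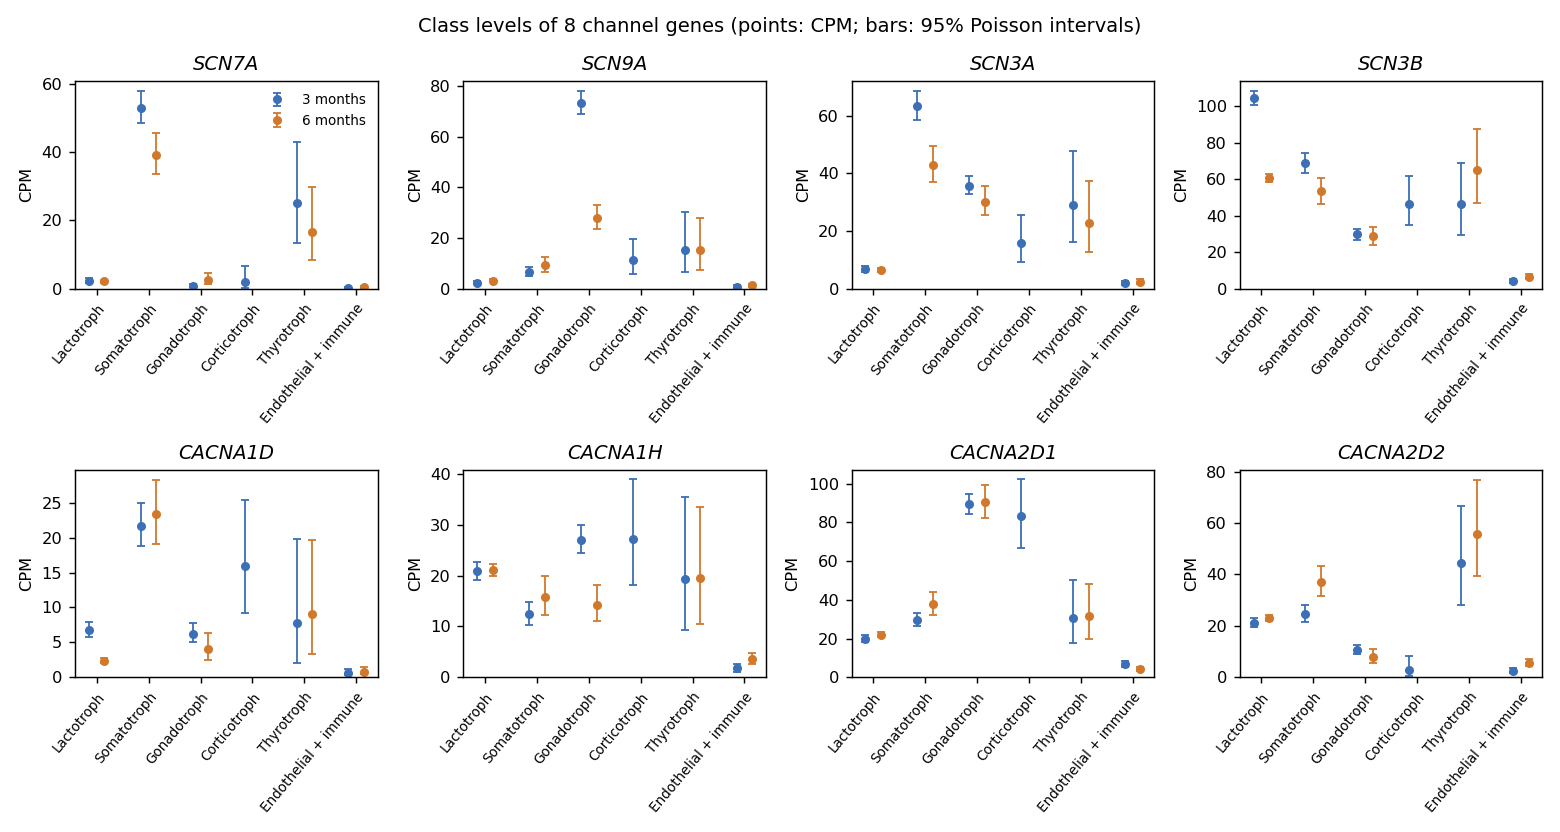
CPM (vertical axis, linear) of 8 channel genes in each class, with 3 months in blue and 6 months in orange and bars for the 95% Poisson intervals. SCN7A lies near 0 in lactotrophs, gonadotrophs and corticotrophs, and CACNA2D1 is near 90 CPM in gonadotrophs in both libraries (89.4 and 90.5), while CACNA1H lies between 12.4 and 27 CPM over lactotrophs, somatotrophs and gonadotrophs.

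Of the sodium channel beta subunits, which modify gating and adhesion, SCN3B was detected in every class. SCN3B was 104.5 CPM in lactotrophs at 3 months and 60.8 at 6 months, 68.7 and 53.3 CPM in somatotrophs, and 29.7 and 28.7 CPM in gonadotrophs, against a background of 3.9 and 6.36 CPM. Lactotrophs stood above somatotrophs by 1.52-fold at 3 months and by 1.14-fold at 6 months, where counting error covered the difference and gated thyrotrophs had 64.9 CPM. That order turned with the scaling, since CPM on plain UMI totals and the mean of per-cell CPM put somatotrophs above lactotrophs in both libraries. With each cell thinned to 2000 UMIs, SCN3B had a UMI in 11.4% and 7.75% of lactotrophs and in 12% and 10.8% of somatotrophs. Endothelial cells had it in 0.508% at 3 months and in 0 of 357 cells at 6 months, which allows up to 0.84%.

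SCN4B and SCN2B, a neighbouring pair in the reference table, had most of their UMIs among the hormone-producing classes in gonadotrophs at 3 months. SCN4B had 52 UMIs in gonadotrophs at 3 months (3.74 CPM) and 5 at 6 months (1.06 CPM), against 0 and 2 in lactotrophs. SCN2B had 13 and 1 UMIs in gonadotrophs and 0 in lactotrophs. In somatotrophs SCN4B had 4 and 0 UMIs and SCN2B 3 and 2. These are small counts, and neither gene had a UMI in the background of either library.

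The calcium channel pores divided less by class. The L-type genes CACNA1C and CACNA1D encode the long-lasting channels that carry much of the calcium entry in endocrine cells. CACNA1D was highest in somatotrophs, at 21.7 CPM (18.8 to 24.9) and 23.3 CPM (19 to 28.3). Lactotrophs had 6.78 and 2.38 CPM, and gonadotrophs 6.25 and 4.03 CPM. The somatotroph level was 3.2-fold the next of the 3 large classes at 3 months and 5.78-fold at 6 months, and gated corticotrophs (15.9 CPM at 3 months) were not apart from somatotrophs. CACNA1C was even across the 3 large classes, from 8.36 to 10.4 CPM at 3 months and from 10.6 to 13 CPM at 6 months, with neighbours in the order not apart. Gated corticotrophs at 3 months had more, 25.2 CPM (16.6 to 36.7). The other L-type genes were nearly undetected, with CACNA1S at 30 UMIs and CACNA1F at 2 over all hormone-producing classes.

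CACNA1B, the N-type pore known from nerve terminals, was low but above background in somatotrophs, at 5.35 and 6.18 CPM. Lactotrophs had 2.11 and 0.614 CPM and gonadotrophs 1.80 and 1.70 CPM. At 3 months these 2 classes were above background too, with lactotrophs at 29.2-fold the background (5.01 to 1175) and somatotrophs at 73.9-fold. Gonadotrophs had 25 UMIs at 3 months and 8 at 6 months, too few for the rule. CACNA1A, the P/Q-type pore, did not exceed the background (3.83 and 3.70 CPM) by the rule in any class. In the 3 large classes CACNA1A had 1.92 to 4.74 CPM at 3 months and 0.686 to 3.82 CPM at 6 months. Stem or folliculostellate cells had more of it, 12.5 and 13.4 CPM of non-hormone UMIs, and cluster 15 had 21.5 and 21.0.

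CACNA1H, a T-type pore that opens near the resting potential, was above background in every described class. At 3 months gonadotrophs had 27 CPM, lactotrophs 20.9 and somatotrophs 12.4. At 6 months lactotrophs had 21.0 CPM, somatotrophs 15.8 and gonadotrophs 14.2, and the somatotroph and gonadotroph intervals overlapped. The remaining T-type genes were sparse, with CACNA1G at 54 UMIs over all hormone-producing classes and CACNA1I at 3.

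The alpha2delta subunits, which carry channels to the membrane and bind gabapentin, differed in where they were highest. CACNA2D1 was highest in gonadotrophs, at 89.4 CPM (84.5 to 94.5) and 90.5 CPM (82.1 to 99.5), next to gated corticotrophs with 83.1 CPM. Somatotrophs had 29.7 and 38.0 CPM and lactotrophs 20.01 and 21.9 CPM. The gonadotroph level was 3.01-fold and 2.38-fold that of somatotrophs. This gene was not confined to hormone-producing cells. Stem or folliculostellate cells had 82.3 and 55.2 CPM of non-hormone UMIs, beside 119 and 120 in gonadotrophs. The unnamed cluster 15, nearest to gonadotrophs by its markers, had 179 and 213.

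CACNA2D2 was lowest in gonadotrophs among the large classes, with 24.6 and 37.1 CPM in somatotrophs, 21.3 and 23.0 in lactotrophs, and 10.6 and 7.86 in gonadotrophs. Gated thyrotrophs were highest, at 44.4 CPM (28.1 to 66.6) and 55.8 CPM (39.3 to 76.9), and gated corticotrophs had 3 UMIs. CACNA2D3 too was highest in gated thyrotrophs, at 21.2 CPM (10.6 to 38.0) from 11 UMIs and 9.05 CPM (3.32 to 19.7) from 6 UMIs. Lactotrophs had 2.07 and 4.49 CPM of it, somatotrophs 1.60 and 3.20, and gonadotrophs 0.934 and 0.849. CACNA2D4 had 1 UMI. After thinning, CACNA2D2 had a UMI in 15.9% and 15.5% of thyrotrophs, from 44 and 58 cells deep enough, and in 0.0726% and 1.12% of endothelial cells.

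Each of the calcium channel beta subunits, which bind the pore inside the cell and raise its current, was found in somatotrophs, but lactotrophs and gonadotrophs had different sets. CACNB1 was 36.8 and 20.3 CPM in lactotrophs and 28.2 and 30.4 CPM in somatotrophs. In gonadotrophs it was 6.97 and 6.80 CPM, not above the background of 5.49 and 4.74 CPM. CACNB2 was above background in every described class, with 45.9 and 40.5 CPM in somatotrophs, 45.4 and 28.9 in gonadotrophs, and 24.3 and 30.2 in lactotrophs. CACNB3 was 20.1 and 11.8 CPM in lactotrophs and between 10.05 and 11 CPM in somatotrophs and gonadotrophs of both libraries.

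Between lactotrophs and gonadotrophs, CACNB4 ran opposite to CACNB1. It had 1 and 6 UMIs in lactotrophs (0.0406 and 0.112 CPM), less than the background of 1.23 and 1.11 CPM, although lactotrophs held more UMIs than any other class. Somatotrophs had 3.10 and 3.89 CPM and gonadotrophs 2.66 and 5.31 CPM. At 6 months 23 of the 25 gonadotroph UMIs of CACNB4 were in cluster 27.

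Gamma subunit genes were rare. CACNG7 had 1.58 and 1.70 CPM in gonadotrophs and 0.812 and 0.856 CPM in lactotrophs, and 5 and 1 UMIs in somatotrophs. CACNG2 had 24 and 22 UMIs in lactotrophs and 14 and 6 in somatotrophs, against 1 and 1 in gonadotrophs. CACNG4 had 62 UMIs over all hormone-producing classes, with 20 and 13 in lactotrophs, 14 and 0 in somatotrophs and 14 and 1 in gonadotrophs. CACNG5 had 18, with 11 and 3 in somatotrophs. CACNG1, CACNG3 and CACNG6 had at most 4 UMIs in any class.

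The class pattern was largely shared by the libraries. For 16 of the 20 members (80%) the highest of the 3 large classes was the same at 3 and 6 months, against 8403 of 12685 genes with 100 UMIs (66.2%). Somatotrophs were highest in both libraries for 9 of the 20 members, gonadotrophs for 4 and lactotrophs for 3. Over all those genes the same was true of 20.7%, 19.6% and 25.9%. With 3 other scalings (UMI totals, UMI totals without hormone genes, and the mean of per-cell CPM) the highest class was the same throughout in both libraries for 11 of the 20. The lactotroph-led members SCN3B, CACNB3 and CACNA2D3 were not among them: each passed to somatotrophs or gonadotrophs under at least 1 scaling in each library. Somatotroph first place for CACNA1C, CACNB2 and CACNB4 at 3 months turned to gonadotroph on UMI totals.

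Between the ages, few members were 2-fold apart within a class. This was counted for members with at least 100 UMIs over both libraries in that class. In lactotrophs 1 of 16 members was 2-fold higher at 6 months, against 2.72% of all genes, and 2 were 2-fold lower, against 4.02%. In somatotrophs 0 of 14 were higher (0.582% of all genes) and 0 lower (1.88%). In gonadotrophs 0 of 14 were higher (3.61%) and 1 was lower (5.32%). No member had 100 UMIs in gated thyrotrophs, where 2.92% of all genes were 2-fold higher and 2.92% lower. The median log2 ratio of 6 over 3 months was -0.04, 0.12 and -0.34 over the members in lactotrophs, somatotrophs and gonadotrophs, and 0.05, -0.01 and -0.01 over all genes. On plain UMI totals the all-gene medians moved to 0.17, 0.23 and -0.18.

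**Figure D3:**
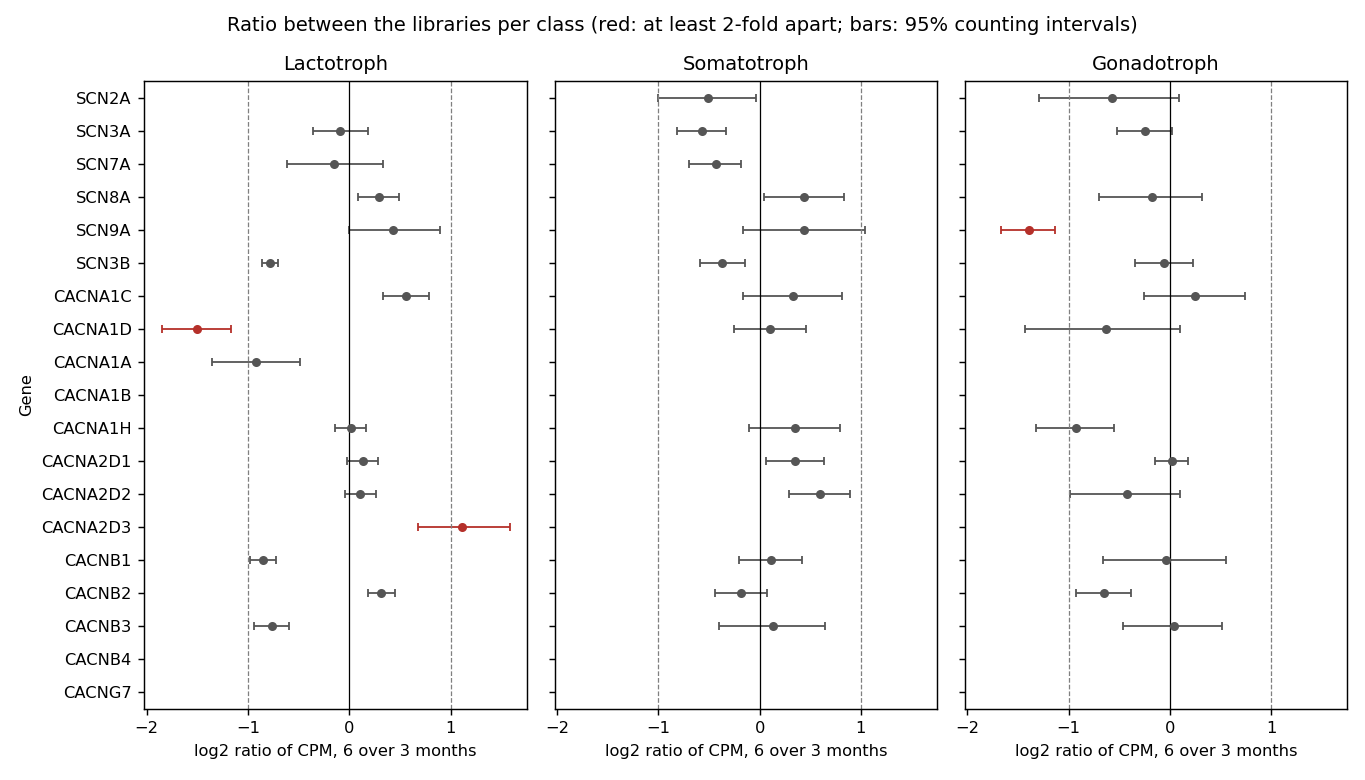
Log2 ratio of CPM, 6 over 3 months (horizontal axis), for 19 channel genes, where they had at least 100 UMIs in lactotrophs, somatotrophs or gonadotrophs, with 95% counting intervals and dashed lines at 2-fold. Red points are at least 2-fold apart: CACNA1D (-1.51) and CACNA2D3 (1.12) in lactotrophs and SCN9A (-1.39) in gonadotrophs.

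In lactotrophs CACNA1D, an L-type pore, was lower at 6 months, and its class log2 ratio lay between -1.74 and -1.12 over the alternatives tried. Markers of other cell types were also unequal in lactotrophs. The 10 endothelial markers summed to 23.7 and 8.85 CPM of non-hormone UMIs at 3 and 6 months, against 8236 and 6771 in endothelial cells. The mural cell markers summed to 167 and 11.5 CPM of non-hormone UMIs, with a UMI for 5 of the 8 at each age. RGS5 had 2726 and 21 UMIs, TAGLN 259 and 181, ACTA2 101 and 205, and NOTCH3 45 and 56, while PDGFRB (0 and 1), MYH11 (1 and 0), CSPG4 (0) and KCNJ8 (0) were at or near 0. Fibroblast markers summed to 36.3 and 3.31 CPM of non-hormone UMIs, with a UMI for 5 and 6 of 7. Their part in the lactotroph differences was not tested.

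Within clusters the intervals of CACNA1D and CACNA2D3 in lactotrophs included equality. CACNA1D went from 6.78 to 2.38 CPM over the class, a log2 ratio of -1.51 (-1.85 to -1.17). Within clusters 2, 4, 5 and 7 its log2 ratios were -0.80, -0.93, -0.54 and -0.13, each with an interval that included 0, and cluster 18 had 5 UMIs. CACNA2D3 went from 2.07 to 4.49 CPM, 1.12 on the log2 scale (0.68 to 1.58). Within clusters 2, 4 and 5 the sign was opposite, at -0.43, -0.69 and -0.14, and in cluster 7 it was 0.79 from 41 and 2 UMIs, again with intervals that included 0. CACNA2D3 was 2.45 CPM of non-hormone UMIs in the 3-month cluster 7 and 10.6 and 7.82 in cluster 2. It also stayed under 2-fold in hormone-gated lactotrophs, where the log2 ratio was 0.56, and with cluster 5 added, where it was 0.79.

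In gonadotrophs SCN9A went from 73.6 CPM (1024 UMIs) to 28.0 CPM (132 UMIs), a log2 ratio of -1.39 (-1.66 to -1.13). The value rests on cluster 27, the gonadotrophs of the 6-month library led by IGFBP1. SCN9A was 18.2 CPM of non-hormone UMIs there and 76.8 in cluster 13 of the same library, a ratio of 0.236 (0.159 to 0.346). Between the libraries cluster 13 had 103 and 76.8 CPM, a log2 ratio of -0.42 (-0.75 to -0.11). Without cluster 27 the class log2 ratio was -0.53, under 2-fold.

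Cluster 27 differed from cluster 13 of the 6-month library in other members too. CACNA1H was 10.6 against 36.7 CPM of non-hormone UMIs, a ratio of 0.29 (0.168 to 0.488), SCN8A had a ratio of 0.308 (0.155 to 0.592) and CACNB2 0.577 (0.404 to 0.824). CACNB4 was higher in cluster 27, with 23 against 2 UMIs and a ratio of 5.97 (1.47 to 52.2), and CACNA2D1 too, 140 against 87.1 CPM, a ratio of 1.61 (1.28 to 2.03). Thus members were both lower and higher in these cells, whose median depth was 23517 UMIs against 17362 in cluster 13.

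**Figure D4:**
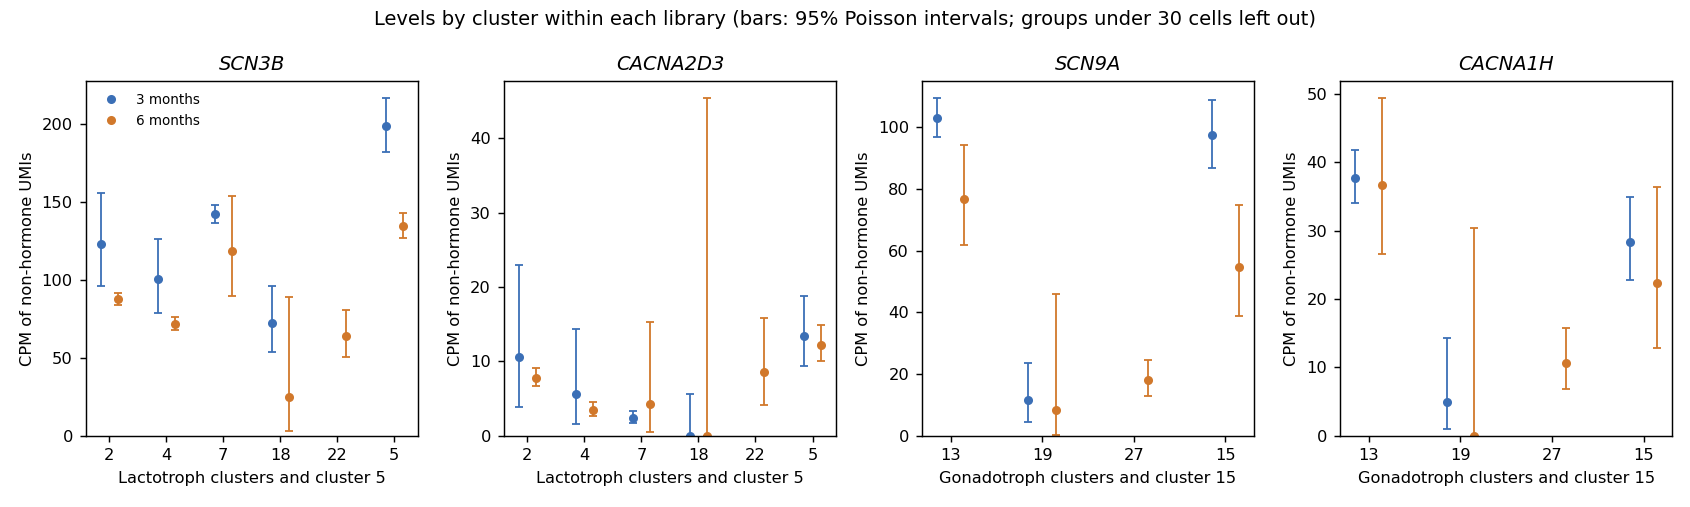
CPM of non-hormone UMIs (vertical axis) by cluster (horizontal axis), 3 months in blue and 6 months in orange, bars for 95% Poisson intervals, groups under 30 cells left out. SCN3B is 199 CPM at 3 months and 135 at 6 months in cluster 5, while SCN9A is 76.8 CPM in cluster 13 and 18.2 in cluster 27 of the 6-month library.

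The remaining age ratios were smaller. In lactotrophs SCN3B (-0.78), CACNB1 (-0.86), CACNB3 (-0.77) and CACNA1A (-0.92) were lower at 6 months on the log2 scale, and CACNA1C (0.56), CACNB2 (0.32) and SCN8A (0.29) were higher, all with intervals that left out 0. Within lactotroph clusters 2, 4 and 7 the log2 ratios were -0.49, -0.49 and -0.26 for SCN3B and -0.61, -0.66 and -0.21 for CACNB1. In cluster 7 both intervals included 0, as did that of CACNB1 in cluster 2. The unnamed cluster 5 is not part of the lactotroph class and has many cells of both libraries. There SCN3B was 199 and 135 CPM of non-hormone UMIs and CACNB1 63.5 and 39.7. In somatotrophs SCN7A (-0.43), SCN3A (-0.57), SCN2A (-0.51) and SCN3B (-0.37) were lower at 6 months, while CACNA2D2 (0.59), SCN8A (0.44) and CACNA2D1 (0.35) were higher. By the mean of per-cell CPM SCN2A went the other way, from 17.7 to 19.3, and SCN3B went from 82.9 to 78.9, while SCN7A and SCN3A stayed lower. After thinning to 2000 UMIs per cell, SCN3A had a UMI in 9.67% and 12% of somatotrophs and SCN2A in 3.37% and 3.66%. At this depth the shares of SCN7A and SCN3B were lower at 6 months, with intervals that overlapped between the ages. Thinned to 4000 UMIs, the share of SCN7A was 13.5% at 3 months and 14.6% at 6 months. In gonadotrophs CACNA1H (-0.92) and CACNB2 (-0.65) were lower and CACNA2D1 was level at 0.02 (-0.14 to 0.18). Within cluster 13, however, CACNA1H was 37.8 and 36.7 CPM of non-hormone UMIs, a log2 ratio of -0.04 (-0.53 to 0.42). None of these class ratios reached 2-fold in this scaling, and that of CACNA1H in gonadotrophs did on plain UMI totals.

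Shares of cells with a UMI, after thinning to 2000 UMIs per cell, put SCN7A and SCN9A highest in the same class as the CPM among the 3 large classes. They put another class first than the CPM did for SCN3B in both libraries, for CACNB1, CACNB2, CACNB4 and CACNA2D3 at 3 months, and for CACNB3, CACNA1C and CACNA1H at 6 months, and no order is read from those shares. For CACNB1 at 3 months somatotrophs had 5.96% and lactotrophs 4.25%. SCN7A had a UMI in 9.33% of somatotrophs at 3 months and 6.88% at 6 months, against 0.382% and 0.302% of lactotrophs and 0.0726% and 0% of endothelial cells. SCN9A had one in 17% and 6.45% of gonadotrophs and in 0 of 1377 and 0 of 357 endothelial cells, which allows up to 0.218% and 0.84%. Without thinning the shares were 24.6% and 23.6% for SCN7A in somatotrophs and 46.9% and 33.2% for SCN9A in gonadotrophs. Median depth was 7196 and 6484 UMIs in somatotrophs, 11144 and 18799 in gonadotrophs, 19231 and 18522 in lactotrophs, and 2750.5 and 3310 in endothelial cells.

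Genes that work beside these channels were taken from lists of channel partners, potassium and HCN channels, calcium stores and transport, and regulated exocytosis. Of 36 channel partners, which include the FGF homologous factors, the leak channel NALCN and calcium channel inhibitors, 19 of the 31 with 10 UMIs were above background in lactotrophs, 20 of 30 in somatotrophs and 22 of 30 in gonadotrophs at 3 months, and 18 of 33, 17 of 23 and 21 of 28 at 6 months. The shares of all genes with 10 UMIs were 27.1%, 26.5% and 26.5%, and 26.5%, 27% and 26.9%. Of 57 potassium and HCN channel genes, which set the resting potential and end each spike, 25 of 36, 24 of 29 and 28 of 37 were above background at 3 months and 24 of 41, 18 of 26 and 16 of 24 at 6 months. Of 22 exocytosis genes 14 of 20, 14 of 21 and 15 of 21, then 15 of 20, 15 of 19 and 14 of 20, were above background. Of 24 calcium store and transport genes 3 of 14, 3 of 13 and 7 of 16, then 5 of 16, 3 of 11 and 4 of 14, were, with a median ratio to background of 0.662, 0.785 and 1.53 at 3 months. The median over all genes was 1.12, 1.1 and 1.11, and that of the potassium channel list 7.81, 9.04 and 4.97.

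Some listed genes were 2-fold apart between the ages. In lactotrophs, where 2.72% of all genes were higher and 4.02% lower, 2 of 26 channel partners were higher at 6 months and 5 lower. RRAD, an inhibitor of L-type channels, had 3 and 107 UMIs, a log2 ratio of 4.03 (2.45 to 6.33), and its relative GEM went from 26.5 to 5.62 CPM (-2.24), with neither above background. RIMBP2, which ties channels to release sites, went from 36.1 to 15.3 CPM (-1.24), and FGF13, not above background, from 7.14 to 2.12 CPM (-1.75). Of 25 potassium and HCN channels 4 were higher and 6 lower, among them KCNB2 (14.2 to 40.2 CPM, 1.5) and KCNH6 (14.6 to 2.79 CPM, -2.39). Of 19 exocytosis genes 2 were higher and 1 lower. SYT1, a calcium sensor of vesicle fusion, went from 7.18 to 31.1 CPM (2.11). KCNB2 was among the leading genes of cluster 2, which held 3.28% of lactotrophs at 3 months and 52.3% at 6 months. Whether the unequal clusters of the libraries carry the lactotroph differences was not tested for these lists.

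In gonadotrophs, where 3.61% of all genes were higher and 5.32% lower, 4 of 22 channel partners were lower at 6 months and 0 higher. NALCN, the sodium leak channel, went from 58.5 to 25.1 CPM (-1.22), and RIMBP2 from 48.9 to 14.7 CPM (-1.74). Of 14 potassium and HCN channels 4 were higher and 0 lower, among them KCNN2 (7.54 to 26.5 CPM, 1.82), KCNK1 (37.6 to 82.2 CPM, 1.13) and KCNA3 (46.7 to 97.7 CPM, 1.06), which was not above background at 6 months. Of 18 exocytosis genes RAB3B alone was lower (28.8 to 8.71 CPM, -1.73), and of 12 calcium store genes RYR2 alone (6.75 to 3.19 CPM, -1.08). In somatotrophs, where 0.582% of all genes were higher and 1.88% lower, 1 of 18 partners, KCNIP4, was lower (38.2 to 16.5 CPM, -1.21) and 1 of 13 potassium channels, KCNN2, was higher (5.67 to 17.2 CPM, 1.60) but not above background at 6 months, with 0 of 9 calcium store and 0 of 15 exocytosis genes apart. In gated thyrotrophs 5, 1, 2 and 4 genes of the lists had 100 UMIs, and 0 were 2-fold apart. Whether cluster 27 carries the gonadotroph differences was not tested for these lists. KCNN2 was among the leading genes of lactotroph clusters 2, 4 and 22. PRL was 1.91% and 7.75% of gonadotroph UMIs and 1.70% and 6.45% of somatotroph UMIs, against 1.9% and 4.79% in background cells. The part of lactotroph RNA in the KCNN2 levels of these classes was not tested.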

How the data were processed

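The deposited matrices of the 2 libraries hold raw UMI counts that the authors made and did not normalize. The submitters' processing notes name Cell Ranger 5.0.0, and the matrix headers name 5.0.1. The genome build is not given in the sources used here, so no coordinates are given. Other deposited lists give gene symbols, gene identifiers and barcodes. All 39 gene identifiers matched the ARS-UI_Ramb_v3.0 gene table, 37 with the same symbol (SCN3A and SCN10A carry placeholders there). Whether reads were divided between similar paralogues was not tested.

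The filter asked for 500 genes and 1000 UMIs per cell and left 16368 and 13253 cells, from which Scrublet doublets were removed (922, 5.63%, and 570, 4.3%). After scaling to 10000 and a log transform, the 3000 most variable genes, chosen without the members, 7 hormone, ribosomal and mitochondrial genes, gave 30 principal components, 15 neighbours and 31 Leiden clusters (resolution 1.0, no integration, scanpy 1.11.5). A cluster was named when at least 3 markers of a class were 1.5-fold higher than the mean of the other clusters and in 10% of cells, with no tie and no other class leading. This naming rule was set with the clusters in view. Gates for POMC and TSHB were the highest 0.1% of background cells, and cells past more than 1 hormone gate were left out.

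Class counts were summed per library and scaled with edgeR 4.0.16 TMM factors. Poisson, Clopper-Pearson and conditional binomial intervals were computed, and a count of 0 was set to a floor of 3 UMIs. The scripts were tested on simulated data. The members and lists were chosen with earlier results of these data known. Members with at least 100 UMIs in the hormone-producing classes are named, and of each list at most 4 genes per class that were 2-fold apart, those with the interval bound farthest from 0 first. The comparison of cluster 27 with cluster 13 and the neighbouring genes were added after the values were seen. Some genes that enter the counts are not reported here.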

Additional observations from a re-analysis of the deposited data

How the results depend on the processing

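Counts of members above background were within 1.5 times of the reported ones in 124 recomputations and moved in 2. These were 9 members in lactotrophs at 6 months with endothelial cells alone as background, and 15 in thyrotrophs at 3 months with a minimum of 3 UMIs. Counts of members 2-fold apart between ages are small, with 79 recomputations within 1.5 times and 23 that moved. In lactotrophs no member was higher (0) at resolution 0.5, at resolution 2.0, with gated classes, and with the unnamed cluster 5 added, 3 were higher with no UMI minimum, and 5, 5 and 6 were lower with a minimum of 20 UMIs, no minimum and a fold of 1.5. In somatotrophs 1 was lower with 20 UMIs, 1 higher and 3 lower with no minimum, and 1 higher at a fold of 1.5. In gonadotrophs 2 were lower (SCN9A and CACNA1H) on UMI totals, with the looser and the stricter cell filter and with gated classes, 0 at resolution 2.0, and 5 at a fold of 1.5. With 20 UMIs 1 was higher and 2 lower, and with no minimum 3 and 4. With doublets kept, and without cluster 27, the count stayed at 1 but SCN9A was not in it. In thyrotrophs 2 were lower with no minimum. CACNA1D stayed 2-fold apart in all 11 alternatives, CACNA2D3 in 7 of 11, and SCN9A in 8 of 11 (log2 ratio -0.37 with doublets kept, -0.66 at resolution 2.0, -0.53 without cluster 27). The analyses with cluster 5 and without cluster 27 were chosen after seeing the data.

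Shares of cells with a UMI move with the thinning depth by construction. At 1000 and 4000 UMIs they were 5.25% and 13.5% for SCN7A in somatotrophs at 3 months, 4.09% and 14.6% at 6 months, 6.16% and 26.3% for SCN9A in gonadotrophs at 3 months, and 12.8% at 6 months at 4000. For SCN3B in lactotrophs they were 5.34% and 20.4%, then 4.31% and 14.4%, and with gated classes 9.05% and 6.18%. Gated corticotrophs at 6 months gave no value. No paired analysis was possible because each age has 1 library. Depth limits the rarer classes: gated thyrotrophs had no member with 100 UMIs.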
